A study of Apis mellifera with 18 samples.

Results

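LOC100577892, a locus that RefSeq annotates as a pseudogene, was the 1 feature of the 28396 counted that met a combined set of limits on level, spread over patrilines and agreement between the Malpighian tubules, the ventriculus and the brain of the honeybee (Apis mellifera). It was chosen by its own values, and it met the limits through the pool of 1 patriline, P8. Its median had to reach 1 CPM (counts divided by the library total and scaled to a common total of 1e6) in each tissue. The standard deviation (SD) of its log2(CPM + 0.1) over the 6 patrilines had to reach 1 in each tissue, and the Pearson correlation of its 6 patriline values had to reach 0.8 for each of the 3 tissue pairs. Genes of royal jelly (Mrjp1 to Mrjp7) and of venom were to be left out, but none of them met the limits. The SDs, correlations and patriline values below are therefore descriptions, with no test.

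The 18 libraries came from Malpighian tubules, ventriculus and brain of workers of patrilines P1, P7, P8, P11, P21 and P24, all from Colony 36, with 1 library for each patriline and tissue. Each library held the pooled RNA of 5 workers, 300 ng from each bee. The workers were taken from the hive at 7 days of age, fed 20 µL of clothianidin, a neonicotinoid insecticide, at 4.27 ppb in 50% sucrose over 4 h, and frozen 24 h after the feeder was removed. Every pool was exposed, so no value here compares exposed with unexposed bees. The study picked these patrilines for high or low survival, but the sample labels carry no such class, and none is compared here.

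A honeybee queen mates with many drones, and the daughters of 1 drone form a patriline within her colony. Drones are haploid, so workers of a patriline share all of their father's genes and differ through their mother, while workers of different patrilines also differ in the paternal copy. The Malpighian tubules are the excretory organs of the insect, and the ventriculus is its midgut, where food is digested. A pseudogene is a locus that resembles a gene but is annotated as lacking an intact coding sequence; it can still be transcribed. The same bees gave all 3 tissues of a patriline, so agreement between tissues is agreement within 1 set of 5 bees and not between independent samples of that patriline.

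Of the 28396 features, 5328 reached the median of 1 CPM in each tissue. Among these, 33 (0.619%) reached the SD limit in each tissue, 12 (0.225%) reached the correlation limit in all 3 pairs, and 1 (0.0188%) reached both. Over the 5328 features the median SD was 0.20 in Malpighian tubules, 0.22 in ventriculus and 0.34 in brain. Their median correlation over the patrilines was −0.13 between Malpighian tubules and brain, −0.38 between ventriculus and brain and 0.32 between Malpighian tubules and ventriculus. For LOC100577892 the values nearest to the limits were a lowest median of 4.01 CPM, a lowest SD of 1.45 and a lowest correlation of 0.85. The features listed as pseudogenes numbered 41, of which 11 passed the level limit and 1, LOC100577892, had an SD of at least 1 in each tissue.

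**Figure D1:**
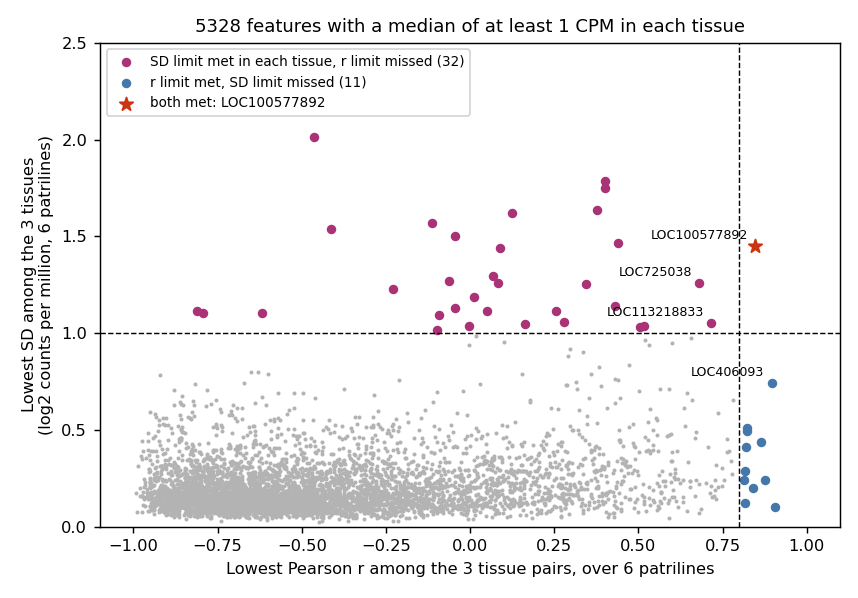
Lowest SD over the 3 tissues (log2 CPM, vertical axis) against the lowest Pearson r over the 3 tissue pairs (horizontal axis) for the 5328 features past the level limit, with dashed lines at the limits of 1 and 0.8. LOC100577892 (star) is alone in the upper right. Most features with a high SD lie far to the left of the correlation limit, and the 32 of them include the venom gene Melt.

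The libraries held between 39722329 and 87946924 counts assigned to features. Transcripts, not genes, were counted, and between 30.9% and 50.3% of the counted reads fell in the class of reads that matched more than 1 feature. Neuronal transcripts (12 matched genes, among them the nicotinic acetylcholine receptor subunits) summed to 10.1 to 94.9 CPM in Malpighian tubules, 4.76 to 8.62 CPM in ventriculus and 296 to 948 CPM in brain. The brain pools of P11 and P21 stood apart, with royal jelly transcripts at 281092 and 192141 CPM, against 8563 to 39724 CPM in the other 4 brain pools. In bulk tissue, a different number of cells of a type and a different amount of RNA per cell cannot be told apart.

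In all 3 tissues the pool of patriline P8 held far more LOC100577892 RNA than any other pool. In Malpighian tubules it stood at 143 CPM in P8 (5916 counts), against 3.60 in P1, 3.57 in P7, 3.86 in P11, 5.76 in P21 and 4.17 CPM in P24 (142 to 274 counts). In ventriculus it stood at 85.8 CPM in P8 (5791 counts), against 11.1 in P1, 10.96 in P7, 4.91 in P11, 5.86 in P21 and 9.46 CPM in P24 (297 to 977 counts). In brain it stood at 227 CPM in P8 (9185 counts), against 38.6 in P1, 39.0 in P7, 14.2 in P11, 14.6 in P21 and 33.6 CPM in P24 (654 to 1990 counts). P8 did not overlap the other 5 pools in any tissue. With at least 142 counts behind each value, counting error was small beside these gaps.

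**Figure D2:**
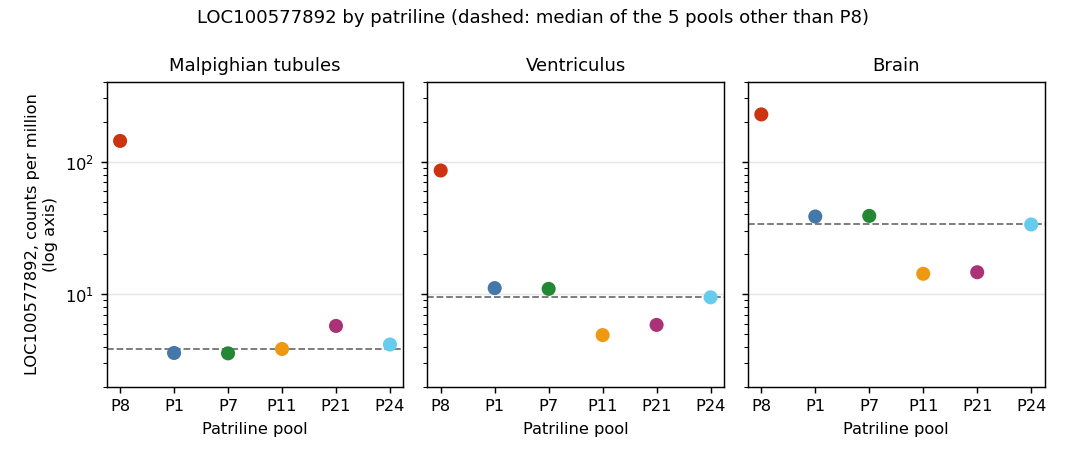
Level of LOC100577892 (CPM, log axis) in the 6 patriline pools of Malpighian tubules, ventriculus and brain, 1 point per library, with P8 at the left of each panel and a dashed line at the median of the other 5 pools. P8 is at 143, 85.8 and 227 CPM, above every other point of its panel, and the other pools split in ventriculus and brain (P1, P7 and P24 above P11 and P21) but not in Malpighian tubules.

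The P8 excess was not of 1 size. P8 stood 37.2-fold above the median of the other 5 pools in Malpighian tubules, 9.06-fold in ventriculus and 6.77-fold in brain. Against the next highest pool the factors were 24.9, 7.72 and 5.83. Scaling the libraries by trimmed mean of M-values (TMM) gave 38.7, 8.28 and 6.81 over the median of the other 5. With 1 pool of P8 bees per tissue, these factors have no replicate error, and 5 bees of the patriline were all that was sampled.

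A second, smaller pattern lay under the P8 excess. In ventriculus and in brain, P1, P7 and P24 stood above P11 and P21 (9.46 to 11.1 against 4.91 and 5.86 CPM in ventriculus, and 33.6 to 39.0 against 14.2 and 14.6 CPM in brain). Without P8, the correlation between ventriculus and brain stayed at 0.99 over the 5 remaining patrilines. It was −0.64 between Malpighian tubules and brain and −0.54 between Malpighian tubules and ventriculus, where P21 was the highest of these 5 pools and P7 the lowest. The SDs without P8 were 0.28 in Malpighian tubules, 0.54 in ventriculus and 0.74 in brain, all under the limit. Leaving out any other patriline kept LOC100577892 within every limit. P11 and P21 were also the brain pools rich in royal jelly RNA. Their summed neuronal transcripts were the lowest in brain, at 307 and 296 CPM, against 672 to 948 CPM in the other pools. Their summed royal jelly transcripts were 281092 and 192141 CPM, against 8563 to 27854 CPM in P1, P7 and P24. Over the 6 brain pools, P8 included, the correlation of LOC100577892 with the summed royal jelly transcripts was −0.48. The P8 excess enters that value, so it does not measure the split among the 5 remaining patrilines. The part of royal jelly or neuronal RNA in the split was not tested. After TMM scaling the split in brain remained, with 18.9 to 22.4 CPM in P1, P7 and P24, against 12.0 in P11 and 11.2 CPM in P21.

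The mean difference between tissues was not used to choose the locus, and it was tested. The spread over patrilines and its agreement between tissues were used, and both enter the error of these tests. A large spread widens the error without a patriline block, and a high correlation narrows it with the block. The p-values for LOC100577892 are therefore not independent of how it was chosen. Across the 10209 transcripts tested, edgeR's quasi-likelihood test called 75% different between Malpighian tubules and brain, 77.4% between ventriculus and brain and 59.3% between Malpighian tubules and ventriculus, at a Benjamini-Hochberg adjusted p of 0.05. LOC100577892 was not called in any of the 3. Its log2 difference was −0.57 ± 1.08 (SE, 6 pools a tissue; edgeR adjusted p = 0.643) for Malpighian tubules minus brain, 0.20 ± 1.08 (edgeR adjusted p = 0.871) for ventriculus minus brain and −0.77 ± 1.08 (edgeR adjusted p = 0.554) for Malpighian tubules minus ventriculus.

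With the patriline as a block, which compares the tissues within the same bees, LOC100577892 was lower in Malpighian tubules than in brain by a log2 difference of −1.82 ± 0.34 (SE; edgeR adjusted p = 0.000376) and lower than in ventriculus by −1.74 ± 0.34 (edgeR adjusted p = 0.000871). Ventriculus and brain differed by −0.08 ± 0.32 (edgeR adjusted p = 0.831; 95% interval −0.71 to 0.55). The block fit called 76.5%, 78.7% and 58.7% of all transcripts for Malpighian tubules minus brain, ventriculus minus brain and Malpighian tubules minus ventriculus. Leaving out P8 gave −2.27 and −2.21 for both tubule contrasts without a block, with edgeR adjusted p of 1.61e-05 and 3.01e-05.

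The order of ventriculus among the tissues depended on the scaling. TMM factors were 1.08 to 1.34 in Malpighian tubules, 0.472 to 0.613 in ventriculus and 1.19 to 1.78 in brain, so scaling by library size alone shifted the median of all transcripts by −0.41 for Malpighian tubules minus brain, −1.56 for ventriculus minus brain and 1.15 for Malpighian tubules minus ventriculus. Between ventriculus and brain the calls over all transcripts split into 3396 higher and 4508 lower in ventriculus after TMM scaling, and into 947 higher and 8110 lower by library size alone. Between Malpighian tubules and ventriculus the split was 3353 higher and 2703 lower in Malpighian tubules, and 7868 higher and 676 lower by library size alone. Between Malpighian tubules and brain it was 3523 higher and 4131 lower, and 2287 higher and 5140 lower by library size alone. With library size alone and the block, LOC100577892 was lower in ventriculus than in brain by −1.66 ± 0.33 (edgeR adjusted p = 0.00029) and lower in Malpighian tubules than in brain by −2.21 ± 0.35 (edgeR adjusted p = 8.04e-05), while the Malpighian tubules minus ventriculus contrast, −0.55, was not called (edgeR adjusted p = 0.137). With library size alone and no block, the Malpighian tubules minus ventriculus difference turned to 0.36 (edgeR adjusted p = 0.756) and ventriculus minus brain to −1.52 (edgeR adjusted p = 0.191), and neither was called. In plain CPM, LOC100577892 was lower in Malpighian tubules than in brain in 6 of 6 patrilines (mean log2 ratio −2.30 ± 1.17, SD, n = 6; exact two-sided sign-flip permutation test p = 0.03125, the smallest that 6 pairs allow, and 0.0469 after adjustment over 3 comparisons). It was lower in ventriculus than in brain in 6 of 6 (−1.62 ± 0.23; exact p = 0.03125, adjusted 0.0469) and lower in Malpighian tubules than in ventriculus in 5 of 6 (−0.68 ± 0.96; exact p = 0.156, adjusted 0.156). After TMM scaling the ventriculus and brain could not be separated (lower in ventriculus in 3 of 6 patrilines, −0.06 ± 0.31, exact p = 0.688, adjusted 0.688). The Malpighian tubules were then lower than the ventriculus in 6 of 6 (−1.83 ± 1.01, exact p = 0.03125, adjusted 0.0469) and lower than the brain in 6 of 6 (−1.90 ± 1.07, exact p = 0.03125, adjusted 0.0469).

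After TMM scaling, P8 had the smallest difference of the 6 patrilines in both contrasts with the Malpighian tubules. Its Malpighian tubules minus brain log2 ratio of TMM-scaled CPM was −0.01, against −2.79 to −1.38 in the other 5 patrilines. Its Malpighian tubules minus ventriculus ratio was −0.38, against −2.81 to −1.15 in the other 5. In ventriculus minus brain the P8 ratio was 0.37, against −0.55 to 0.09 in the other 5, and in plain CPM the Malpighian tubules minus ventriculus ratio of P8 was 0.74, against −1.63 to −0.03. In P8 the TMM-scaled level in Malpighian tubules was thus close to that in brain.

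The genes beside LOC100577892 in the RefSeq table carried few counts. LOC102653858, a protein-coding gene that overlaps it in the table, had 9 counts in Malpighian tubules of P8, against 0 to 3 in the other pools, and 19 in ventriculus of P8, against 1 to 4. In brain it had 0 counts in P8 and 0 to 4 in the other pools. LOC102653814, the next gene on that side, had 9 counts in Malpighian tubules of P8, against 0 or 1, and 48 in ventriculus of P8, against 0 to 15, but 2 in brain of P8, against 0 to 5. On the other side, LOC102656271 (0 to 91 counts a library) and LOC727578 (0 to 5 counts) were not highest in P8, except for LOC727578 in brain, at 5 counts in P8 against 0 to 4. The kit marked strand, but the strand setting of the counting was not given, so reads of overlapping genes on opposite strands may not be separated.

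Across the 8735 features that reached 1 CPM in at least 3 libraries, the closest to LOC100577892 over the 18 values, each taken as the log2 deviation from its tissue's mean, were LOC726446 (r = 0.86), LOC113218542 (r = 0.80) and LOC102653803 (r = 0.80). LOC726446 was highest in P8 in all 3 tissues, at 2.79 CPM in Malpighian tubules (other pools 0.226 to 0.651), 0.518 CPM in ventriculus (0.239 to 0.364) and 1.49 CPM in brain (0.536 to 1.40). LOC113218542, a noncoding transcript, stood at 19.0 CPM in Malpighian tubules of P8, against 0.453 to 3.47 in the other pools, at 1.35 CPM in ventriculus, against 0.136 to 0.698, and at 27.7 CPM in brain, against 3.99 to 14.4. LOC102653803 differed less, at 1.19, 3.33 and 1.46 CPM in P8 Malpighian tubules, ventriculus and brain, against highest other values of 0.609, 3.04 and 1.24 CPM. The points share 6 sets of bees and carry no p.

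The same values, which the rule used, can be described by how often 1 patriline was highest in every tissue. Over 5325 features (the 5328 without royal jelly and venom genes), the same patriline was highest in all 3 tissues for 161, by patriline 18 in P8, 36 in P1, 12 in P7, 29 in P11, 43 in P21 and 23 in P24. The smallest of the 3 gaps to the next pool exceeded 0.5 on the log2 scale for 5 of the 161, and exceeded 1 for LOC100577892 alone, at 2.54. The same patriline was lowest in all 3 tissues for 105 features, 39 of them in P11. Their gap exceeded 0.5 for 1 feature and exceeded 1 for none. How many features unrelated patriline orders would give was not worked out. The counts of 161 and 105 are therefore not read as agreement between tissues.

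Choosing on 2 tissues and reading the third gave few agreeing features. On ventriculus and brain, 4 features met the limits. In Malpighian tubules 3 of them had an SD of at least 1 (5.76% of all 5328 features did) and 1 also correlated at 0.8 or more with both other tissues. On Malpighian tubules and brain, 9 met the limits, and in ventriculus 4 of these passed the SD limit (1.69% of all) and 1 passed both. On Malpighian tubules and ventriculus, 5 met the limits, and in brain 3 passed the SD limit (3.49% of all) and 1 passed both. The 1 that passed both was LOC100577892 each time, as the rule itself fixes, since a feature that meets the limits in all 3 tissues meets them on any 2. These counts reuse the values of the rule.

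Another 10 transcripts met the SD and correlation limits but not the level limit. Among them, 4 followed the royal jelly RNA: Mrjp1, Mrjp5, Mrjp6, which encode major royal jelly proteins made in the hypopharyngeal glands of the head, and LOC406081. Their correlations with the summed royal jelly transcripts, a sum that holds the Mrjp genes themselves, were 0.86 to 1.00. Mrjp1 stood at 10723 CPM in P21 and 1117 CPM in P11 Malpighian tubules, against 0.881 to 4.26 CPM in the other 4 pools, and at 161 and 149 CPM in ventriculus, against 0.517 to 0.665. LOC406081 stood at 1672 and 82.3 CPM in Malpighian tubules of P21 and P11, against 0.0252 to 0.946 CPM in the others. The other 6 were low transcripts, 2 of protein-coding genes and 4 long noncoding RNAs, none of which RefSeq names beyond its locus number.

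**Figure D3:**
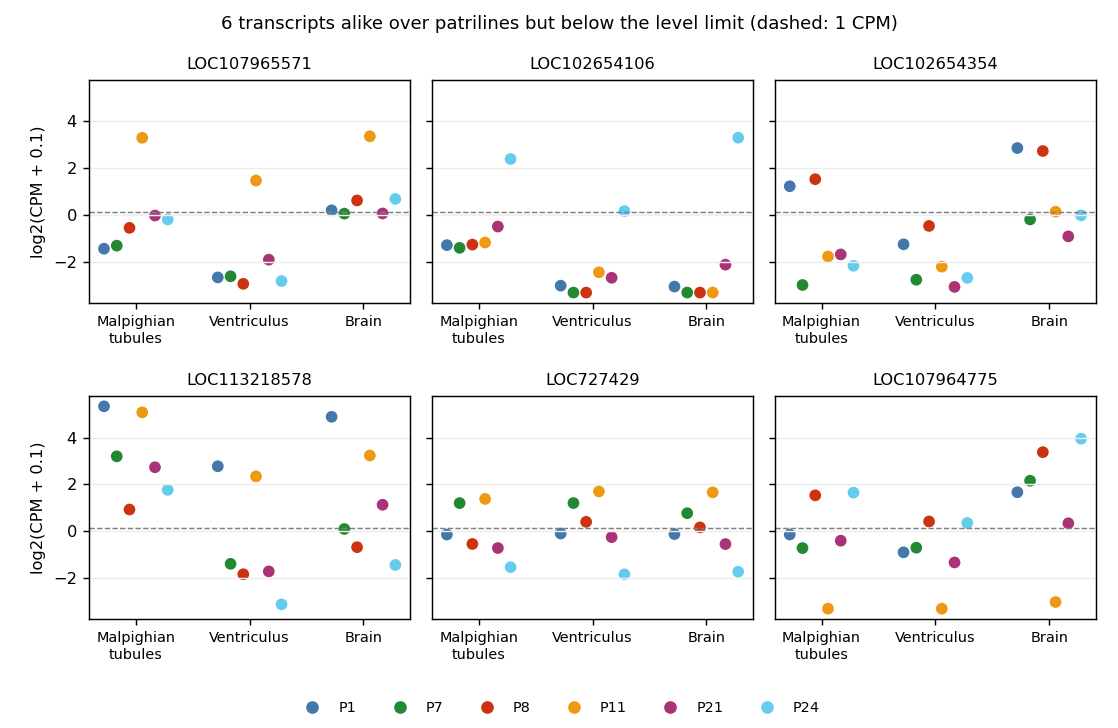
Levels, as log2(CPM + 0.1), of the 6 low transcripts in the 6 patriline pools (colours) of Malpighian tubules, ventriculus and brain, 1 point per library, with a dashed line at 1 CPM. LOC107965571 has P11 alone at the top and LOC102654106 has P24 alone at the top in each tissue, while P11 is at the bottom for LOC107964775.

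LOC107965571 (protein-coding) was high in P11 alone. It stood at 9.76 CPM in Malpighian tubules of P11, against 0.267 to 0.882 CPM in the other 5 pools, at 2.68 CPM in ventriculus of P11 (162 counts), against 0.0296 to 0.165 CPM (2 to 9 counts), and at 10.2 CPM in brain of P11, against 0.939 to 1.51 CPM. P11 stood 11.1-fold, 16.2-fold and 6.76-fold above the next pool in Malpighian tubules, ventriculus and brain. Without P11 its SDs were at most 0.65 and its lowest correlation was −0.71. The protein-coding gene next to it, LOC102655636, singled out after its values were seen, was also highest in P11 in each tissue, at 3.81 CPM in Malpighian tubules (other pools 0.452 to 1.07), 0.992 CPM in ventriculus (0.109 to 0.296) and 3.38 CPM in brain (0.198 to 0.665).

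LOC102654106 (long noncoding) was high in P24 alone. It stood at 5.16 CPM in Malpighian tubules of P24 (213 counts), against 0.277 to 0.609 CPM (11 to 29 counts), and at 1.02 CPM in ventriculus of P24 (75 counts), against 0 to 5 counts. In brain it had 441 counts in P24 (9.78 CPM), against 1 count in P1, 6 in P21 and 0 in P7, P8 and P11, where a count of 0 allows up to 0.0653 to 0.0743 CPM. Outside P24 the Malpighian tubules therefore held more of it than the brain, while in P24 the brain held more. The gene next to it, LOC413379 (protein-coding, singled out after its values were seen), was highest in P24 too, at 6.90 CPM in Malpighian tubules (other pools 0.126 to 1.04), 0.381 CPM in ventriculus (0.0331 to 0.148) and 3.19 CPM in brain (0.386 to 1.36).

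LOC102654354 (long noncoding) was high in both P8 and P1. It stood at 2.79 and 2.24 CPM in Malpighian tubules of P8 and P1, against 0.0252 to 0.210 CPM in the other 4, at 0.622 and 0.318 CPM in ventriculus, against 0.0184 to 0.116 CPM, and at 6.56 and 7.17 CPM in brain, against 0.429 to 1.00 CPM. The pair did not overlap the other 4 pools in any tissue, though 4 of the ventriculus values rest on 1 to 7 counts. Its locus is on an unplaced scaffold in the table, so no neighbour was read.

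LOC113218578 (long noncoding) was high in both P1 and P11. It stood at 40.3 and 33.7 CPM in Malpighian tubules of P1 and P11, against 1.79 to 9.06 CPM, at 6.73 and 4.96 CPM in ventriculus, against 0.0136 to 0.278 CPM, and at 29.5 and 9.30 CPM in brain, against 0.266 to 2.08 CPM. It was the only one of the 6 low transcripts that met the SD and correlation limits whichever patriline was left out. Its median level was below 1 CPM in ventriculus, at 0.240. LOC100578247, the protein-coding gene next to it (singled out after its values were seen), was likewise highest in P1 and P11. It stood at 51.5 and 37.0 CPM in Malpighian tubules of P1 and P11, against 9.11 to 18.0 CPM, at 5.31 and 5.65 CPM in ventriculus, against 0.163 to 0.826 CPM, and at 23.8 and 9.04 CPM in brain, against 0 to 3.63 CPM. Over the 6 patrilines both loci correlated at 0.93, 0.97 and 0.94 in Malpighian tubules, ventriculus and brain.

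LOC727429 (protein-coding) had a graded pattern that was nearly the same in each tissue. P11 and P7 were highest, at 2.49 and 2.19 CPM in Malpighian tubules, 3.14 and 2.20 CPM in ventriculus and 3.05 and 1.60 CPM in brain. P24 was lowest, at 0.242, 0.177 and 0.200 CPM, with P1, P8 and P21 between 0.504 and 1.21 CPM. With its lowest median at 0.692 CPM, in Malpighian tubules, it was the transcript nearest to the level limit from below.

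LOC107964775 (long noncoding) had its lowest counts in P11, at or near 0. It had 0 counts in Malpighian tubules of P11 (which allows up to 0.0639 CPM), against 20 to 125 counts, 0 in ventriculus of P11 (up to 0.0496 CPM), against 16 to 86, and 1 in brain of P11, against 54 to 693. P24 and P8 were highest, at 3.03 and 2.79 CPM in Malpighian tubules, 1.17 and 1.23 CPM in ventriculus and 15.4 and 10.3 CPM in brain. LOC412162, which overlaps it in the table, had 0 to 4 counts in each library.

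The tissue calls of these 6 transcripts depended on the fit. They were chosen by the same SD and correlation limits, which widen the error without the block and narrow it with the block. Their calls are therefore not independent of that choice. With TMM scaling and no block, edgeR called 0 of the 7 (the 6 and LOC100577892) in each of the 3 contrasts. Of all transcripts it called 75%, 77.4% and 59.3% for Malpighian tubules minus brain, ventriculus minus brain and Malpighian tubules minus ventriculus. In the same order, 0, 1 and 0 of the 7 had an unadjusted p under 0.05. DESeq2, which gave an adjusted p to 4 of the 7, called 0, 2 and 0, against 76.1%, 78% and 62% of all transcripts; its 2 were LOC727429, higher in ventriculus, and LOC102654354, lower in ventriculus. By library size alone without the block edgeR called 0, 2 (both lower in ventriculus) and 1 (higher in Malpighian tubules) of the 7. Of all 10209 transcripts it called 2287 higher and 5140 lower for Malpighian tubules minus brain. The split was 947 and 8110 for ventriculus minus brain, and 7868 and 676 for Malpighian tubules minus ventriculus. With the block, edgeR called 5 of 7 between Malpighian tubules and brain, with 2 higher (34.8% of all transcripts) and 3 lower (41.7%) in Malpighian tubules. It called 4 of 7 between ventriculus and brain, with 1 higher (34%) and 3 lower (44.7%) in ventriculus. It called 5 of 7 between Malpighian tubules and ventriculus, with 3 higher (31.7%) and 2 lower (27%) in Malpighian tubules. Among those past the threshold, LOC113218578 was higher in Malpighian tubules than in ventriculus by 2.98 ± 0.52 (log2, SE; edgeR adjusted p = 0.00037) and than in brain by 2.53 ± 0.50 (edgeR adjusted p = 0.000531). LOC107964775 was lower in Malpighian tubules than in brain by −1.54 ± 0.23 (edgeR adjusted p = 6.16e-05), and LOC102654354 was lower in ventriculus than in brain by −2.32 ± 0.39 (edgeR adjusted p = 0.000139). LOC727429 was higher in ventriculus than in brain by 1.69 ± 0.22 (edgeR adjusted p = 1.56e-05). The fitted values of LOC102654106 rest on pools with no counts and are not used as sizes.

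Just outside the SD limit stood LOC406093, LOC102656247 and LOC552048, which met the level and correlation limits. LOC406093 had its lowest SD, 0.74, in ventriculus. It followed the royal jelly pattern, at 2272 and 212 CPM in Malpighian tubules of P21 and P11, against 2.06 to 8.85 CPM. LOC102656247 (lowest SD 0.51) was highest in P1 in each tissue, at 83.7 CPM in Malpighian tubules (other pools 24.3 to 42.7), 29.1 CPM in ventriculus (10.4 to 15.6) and 51.8 CPM in brain (4.94 to 10.9). LOC552048 (lowest SD 0.50) was highest in P11 in each tissue, at 23.1 CPM in Malpighian tubules (other pools 8.96 to 22.8), 16.4 CPM in ventriculus (6.58 to 15.7) and 18.9 CPM in brain (7.37 to 13.2).

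Just outside the correlation limit stood LOC113218833 (lowest r 0.72), LOC725038 (0.68) and TpnCIIIa (0.52), a troponin C gene of muscle. LOC113218833 was low in P7, at 1.38 CPM in Malpighian tubules (other pools 16.98 to 46.5), 1.25 CPM in ventriculus (2.65 to 9.40) and 2.54 CPM in brain, where P11 was lower still at 2.05 CPM and the other pools held 5.37 to 19.6. Ranking the patrilines (Spearman) in place of Pearson made LOC113218833 the single feature within the limits and dropped LOC100577892. LOC725038 was highest in P11 throughout, at 863 CPM in Malpighian tubules (other pools 29.2 to 196), 151 CPM in ventriculus (8.47 to 58.3) and 1080.5 CPM in brain (120 to 546).

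Most features that varied strongly in each tissue did not vary alike. Besides the venom gene Melt, 31 transcripts met the level and SD limits and missed the correlation limit. Their median correlation was 0.47 between Malpighian tubules and brain, 0.13 between ventriculus and brain and 0.39 between Malpighian tubules and ventriculus. Of the 31, 26 reached 0.8 in none of the pairs, 3 in 1 pair and 2 in 2 pairs. The highest Malpighian tubule pool was P11 for 25 of them, the highest ventriculus pool was P11 for 29, and the highest brain pool was P21 for 17 and P11 for 9. The same patriline was highest in all 3 tissues for 8.

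**Figure D4:**
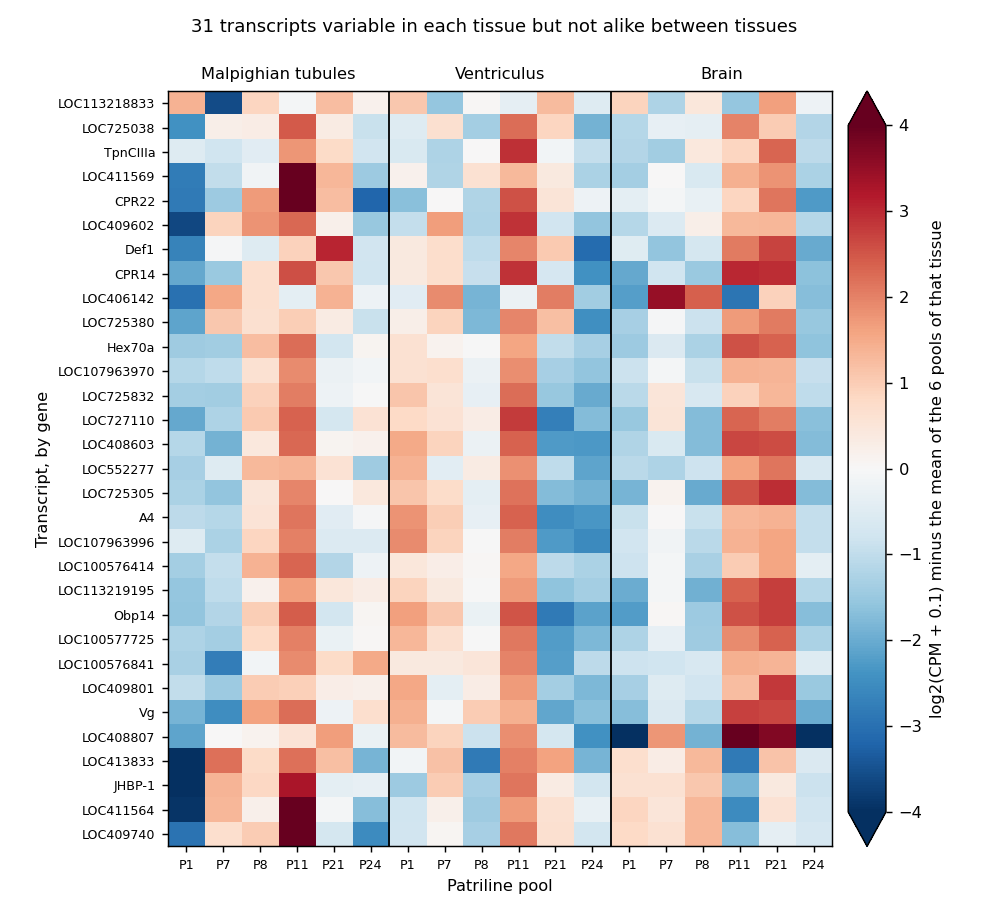
Deviation of log2(CPM + 0.1) from the mean of the 6 pools of a tissue, for the 31 transcripts (rows) in the 18 libraries (columns, by tissue and then patriline). Red is above the tissue mean and blue below, and the colour scale ends at 4 in each direction. Red runs down P11 in Malpighian tubules and ventriculus, and down P11 and P21 in brain.

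These 31 include genes of known roles outside the 3 dissected tissues. Vg encodes vitellogenin, the yolk protein of the fat body, and stood at 993 CPM in P11 Malpighian tubules, against 38.0 to 645 CPM in the other pools, and at 358 and 345 CPM in P11 and P21 brain, against 13.6 to 35.9 CPM. In ventriculus it was 77.2 CPM in P11 and 76.8 CPM in P1, against 6.63 to 57.2 CPM. Hex70a, a hexamerin storage protein of the fat body, was highest in P11 in each tissue (1441, 312 and 334 CPM in Malpighian tubules, ventriculus and brain). The cuticular protein genes CPR14 and CPR22 were both highest in P11 in Malpighian tubules and ventriculus, CPR14 at 160 and 38.4 CPM and CPR22 at 339 and 54.1 CPM. Of the lists checked, 2 of 2 fat body genes past the level limit, 2 of 4 antimicrobial genes (Def1, which encodes a defensin, and LOC406142) and 1 of 2 muscle genes (TpnCIIIa) were among these 31 transcripts. The 31 are 0.582% of all features past that limit. Of the 6 chemosensory genes past it, 1 was, the odorant-binding protein gene Obp14. Neither the 1 listed nerve gene nor the 1 listed cytochrome P450 gene past it was, and neither were the 2 royal jelly genes past it. The P450 list took only names starting with CYP, so it missed P450 genes filed under locus numbers. CYP9Q1 (LOC410492) and CYP9Q2 (LOC408452) both passed the level limit, with lowest tissue medians of 70.3 CPM in brain and 1449 CPM in ventriculus. Of the 389 transcripts past the level limit with a noncoding RefSeq identifier, 2 were among the 31. They were LOC100576841, a long noncoding RNA, and a transcript of LOC411569, a gene annotated as protein-coding.

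The summed fat body and muscle transcripts moved with several of these values, but the sums hold some of the same genes. Vg and Hex70a are in the fat body list, and TpnCIIIa is in the muscle list. In P11 Malpighian tubules Vg stood at 993, Hex70a at 1441 and TpnCIIIa at 415 CPM, most of the sums there. The agreement with these 3 genes was thus built in. The fat body list (4 matched genes) summed to 2438 CPM in P11 Malpighian tubules, against 156 to 1372 CPM in the other pools, to 395 CPM in P11 ventriculus, against 57.1 to 245, and to 693 and 638 CPM in P11 and P21 brain, against 32.7 to 75.0. The muscle list (6 matched genes) summed to 463 CPM in P11 Malpighian tubules, against 76.3 to 226 CPM, to 149 CPM in P11 ventriculus, against 12.3 to 23.4, and to 335 and 122 CPM in P21 and P11 brain, against 27.3 to 88.8. Their part in the 31 patterns, and in those of LOC107965571 and LOC107964775, where P11 stood apart as well, was not tested. P8, the patriline of the LOC100577892 excess, had no summed list highest in all 3 tissues. Its fat body sum was the second highest in Malpighian tubules, at 1372 CPM, and its other sums there lay within the range of the remaining pools. In ventriculus its nerve sum was the highest, at 8.62 CPM against 8.48 CPM in the next pool, P24, and its venom sum the lowest, at 18.9 CPM. The part of other tissues in the P8 excess was not tested.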

How the data were processed

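Total RNA libraries (a stranded kit) from 3 tissues of 6 patrilines were processed by the study's authors. Per the labels and the methods, reads were trimmed with Trimmomatic, dropping those under 50 bases, aligned with STAR and counted with HTSeq. Which versions, strand option and gene models went into the counting is not given in the sources used here. The deposited values are raw read counts per transcript or gene, 1 file per library. The methods name an older assembly than the one whose names the features carry (27887 features matched RefSeq by accession, 41 by gene name, 468 not at all), so no coordinates are printed.

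The 5 HTSeq summary classes were left out of library sizes and CPM; their shares of all reads ranged from 6.26% to 17.6% for reads in no feature, 30.9% to 50.3% for ambiguous reads and 1.47% to 2.76% for reads aligned more than once, and were 0 for the other classes. Membership used log2(CPM + 0.1). Tissues were compared with edgeR 4.0.16 (R 4.3.3), TMM scaling and filterByExpr (minimum count 10), with all 18 libraries in a fit by tissue, Benjamini-Hochberg adjusted over 10209 transcripts at a threshold of 0.05, and then with the patriline as a block. DESeq2 1.42.0 and Python 3.11.15 (scipy 1.17.1) were also used, and the fits and the membership search were tested on simulated data. The same numbers in the labels mark the same bees, which the study dissected for all 3 tissues. Over the tested transcripts, deviations of same-patriline libraries from their tissue means correlated at −0.17 to 0.44 (14 of 18 over 0.1). The same number was the best match in 15 of 18. The exceptions were P8 (0.005) and P21 (−0.17) between Malpighian tubules and brain, and P21 (0.04) between ventriculus and brain.

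Named were all members, the 3 features just outside each limit, adjacent genes, and the transcripts most alike; the 31 variable transcripts are named by list. The members, lists and limits were chosen with earlier results of these data known. P-values of the fits by tissue alone measure the spread over the pools of a tissue, 6 in the main fit. Those of the block fits and the sign-flip tests measure the spread of the tissue differences within patrilines. Counting intervals and floors cover counting error only. Pools of 1 tissue differed by more than sampling noise in all 45 pairs. Alternatives were other scalings, pseudocounts, limits, filters and tools, leaving out each patriline, and leaving out the P11 and P21 brain pools.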

Additional observations from a re-analysis of the deposited data

Results flagged for a closer look

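For 21 groups of 6 pools (7 transcripts in 3 tissues), the gap of the highest pool to the next was taken as a share of the group's range. In 10 groups it exceeded Dixon's 95% critical value for 6 samples, which normally distributed values do in about 1 in 20 groups. The shares were taken on plain CPM and not on log2 CPM, the scale of the SD and correlation limits. The transcripts were chosen for the spread of these same values, so that rate does not apply to them and the ratios are a description, with no test. For LOC100577892 the P8 pool gave 0.984 in Malpighian tubules, 0.923 in ventriculus and 0.884 in brain. For LOC107965571 the P11 pool gave 0.935, 0.949 and 0.939 in the same order of tissues. For LOC102654106 the P24 pool gave 0.932, 0.919 and 0.987. For LOC113218578 the P1 brain pool gave 0.691, at 29.5 CPM, against 9.30 CPM in the next pool, P11. On the log2 scale P1 and P11 stood 3.69 and 2.03 above the brain mean and P24, the lowest, at −2.65. There the gap of P1 was a smaller share of the range.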

How the results depend on the processing

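The count of 1 rests on P8 and on the limits. It was 2 with the median limit at 0.5 CPM (LOC727429 joined) and 0 with that limit at 5 CPM, with the correlation limit at 0.9 or with the SD limit at 1.5. Leaving out each patriline in turn gave 0 (without P8) to 2 (LOC725038, LOC113218833 or LOC113219046 joined without P1, P11 or P24). Spearman correlation also gave 1, but it was LOC113218833. TMM-scaled CPM, pseudocounts of 1 and 0.01, an SD limit of 0.8 and counts summed per gene kept LOC100577892.

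For LOC100577892, the replicate block gave log2 differences of −1.82 for Malpighian tubules minus brain and −1.74 for Malpighian tubules minus ventriculus, now past the threshold. Library size alone with the block (chosen after seeing the data) gave −2.21 for Malpighian tubules minus brain and turned ventriculus minus brain to −1.66. Library size alone without the block turned Malpighian tubules minus ventriculus to 0.36 and ventriculus minus brain to −1.52, neither called. Leaving out 1 patriline, with or without the block, gave −2.27 to −0.45 for Malpighian tubules minus brain and −2.21 to −0.67 for Malpighian tubules minus ventriculus; without the block both tubule contrasts were called only without P8. The low transcripts LOC102654106 and LOC107964775 changed sign and were then called. The fitted values of LOC102654106 rest on pools with no counts and are given for their sign only: Malpighian tubules minus brain went to 2.53 under the block and 2.23 under the block with library size alone, with −0.088 to 4.05 over the settings without 1 patriline. LOC107964775, Malpighian tubules minus ventriculus, gave 0.95 by library size alone with the block. DESeq2 gave LOC100577892 no adjusted p. The counts of all transcripts called stayed within 1.5 times of those given in every alternative run. The cause of these changes was not tested. Single pools per patriline and tissue limit every patriline value, and the low transcripts rest on few counts in ventriculus.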
